A study of Mus musculus with 6 samples.

Results

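The array used in this study carries a large set of custom 60-base oligonucleotide probes whose names begin with mmu and end with PI428960544. Every non-control probe with such a name was taken, whatever its signal, which gave 33763 of the 91188 probes of the array. The comparison set was the 37191 probes of the manufacturer's A_51, A_52 and A_55 catalogue series. A further 2040 mmu probes carry 3 other suffixes and were not included, so the custom set is smaller than a count of all mmu names would give.

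The probes were read on 6 single-colour arrays of primary mouse microglia, the resident immune cells of the brain, which the study examined for the role of the long noncoding RNA U90926 in ischemic stroke. In 3 samples the cells received a vector virus and in 3 an sh-U90926 virus, a short hairpin construct against U90926, at an MOI of 50 (virus particles per cell). After 48 hours all 6 samples were given LPS, an outer membrane molecule of bacteria to which microglia respond, at 100 ng/ml for 3 hours, so no array shows unstimulated cells. The titles name U90926 for all 3 knockdown samples, while the source names of replicates 2 and 3 read U90927 and U90928. Nothing in the labels says that the replicates came from separate animals or preparations, and p-values therefore measure only how far these samples spread, which can be technical. Replicate 1 of each group was scanned in run 1 and the others in run 2, and 1 slide held vector replicate 2 with sh-U90926 replicates 2 and 3.

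An array probe reports the amount of labelled copy RNA that hybridises to it. The sequences below run 5′ to 3′ and are those of the transcript that is read, so that a transcript of the opposite strand is not. Custom probes of this kind are commonly added to a catalogue array to reach long noncoding RNAs, transcripts that are not translated and that act through the RNA or its transcription, alternative ends of messenger RNAs, and the primary transcripts from which microRNA hairpins are cut. Which transcripts these probes were designed for was not stated in the labels or files, and the files pair none of them with a gene. Names were therefore taken only where the probe's letters matched a RefSeq promoter window (250 bases before to 50 bases after a gene's start) or microRNA hairpin of assembly GRCm38.p6. None of the 157 genes in 8 pathway lists or of the 51 genes in 7 cell type marker lists was matched to a custom probe, nor were U90926 and Cxcl2. The cell type label and the knockdown were thus not checked on these probes. All probe names below omit the shared suffix.

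The 4 custom probes with the steepest falls among those detected on all 6 arrays show the kind of sequence that lost signal in the sh-U90926 samples.
mmu_28084: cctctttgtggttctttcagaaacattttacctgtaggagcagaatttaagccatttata
mmu_28520: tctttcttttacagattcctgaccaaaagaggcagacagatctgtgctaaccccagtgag
mmu_18092: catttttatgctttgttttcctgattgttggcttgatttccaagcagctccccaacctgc
mmu_32432: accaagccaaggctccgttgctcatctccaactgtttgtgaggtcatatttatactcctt

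No pair among these 4 shares 30 bases. A further 3 falling probes overlap one another and are shown for that reason. The 31 bases common to all of them are in capitals.
mmu_13728: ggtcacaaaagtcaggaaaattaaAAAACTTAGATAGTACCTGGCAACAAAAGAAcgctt
mmu_1490: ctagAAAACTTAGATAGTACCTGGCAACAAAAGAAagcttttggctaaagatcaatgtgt
mmu_19751: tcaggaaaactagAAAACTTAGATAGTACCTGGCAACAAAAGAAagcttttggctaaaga

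The falls that went below detection in all 3 sh-U90926 arrays are led by the following pair.
mmu_19572: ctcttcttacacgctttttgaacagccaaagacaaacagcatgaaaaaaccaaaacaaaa
mmu_28053: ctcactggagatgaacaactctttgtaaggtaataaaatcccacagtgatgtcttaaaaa

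The steepest rises among probes detected on all 6 arrays, and the rise from below detection in vector with the largest lower bound on its fold change (mmu_7918), were these.
mmu_25213: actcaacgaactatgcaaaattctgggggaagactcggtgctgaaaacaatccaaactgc
mmu_7744: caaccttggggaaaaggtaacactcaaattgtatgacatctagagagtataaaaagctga
mmu_17863: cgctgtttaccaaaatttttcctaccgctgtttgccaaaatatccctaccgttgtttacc
mmu_13125: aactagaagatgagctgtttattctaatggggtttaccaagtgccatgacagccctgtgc
mmu_7918: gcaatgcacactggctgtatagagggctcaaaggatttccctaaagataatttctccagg

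The custom probes that could be placed in the genome and that passed the test are shown next, with the bases that lie in a microRNA hairpin in capitals.
mmu_1748: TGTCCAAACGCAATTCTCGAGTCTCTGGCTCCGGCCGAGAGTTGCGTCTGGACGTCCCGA
mmu_6317: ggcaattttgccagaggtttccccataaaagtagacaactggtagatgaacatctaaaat
mmu_1421: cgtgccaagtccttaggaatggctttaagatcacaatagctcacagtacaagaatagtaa
mmu_30860: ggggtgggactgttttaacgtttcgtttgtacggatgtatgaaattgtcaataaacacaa
mmu_1966: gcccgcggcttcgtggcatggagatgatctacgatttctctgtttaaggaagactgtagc

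In mmu_1748 all 60 bases lie in the hairpin of Mir219a-1. The hairpin probes that were measured without passing the test include mmu_905 in Mir6516 and mmu_35819 in Mir3069, both inside small nucleolar RNA host genes, and mmu_923 in Mir92-1 was not tested.
mmu_905: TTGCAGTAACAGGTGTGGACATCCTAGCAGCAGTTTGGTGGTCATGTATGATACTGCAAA
mmu_35819: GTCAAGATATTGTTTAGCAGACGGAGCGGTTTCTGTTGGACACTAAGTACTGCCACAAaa
mmu_923: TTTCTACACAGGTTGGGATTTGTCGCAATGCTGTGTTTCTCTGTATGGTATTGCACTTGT

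The last group holds 3 bright probes with sequence that recurs in many promoter windows, with the 16 most widely shared bases in capitals.
mmu_854: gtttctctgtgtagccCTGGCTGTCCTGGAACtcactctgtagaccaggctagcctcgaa
mmu_124: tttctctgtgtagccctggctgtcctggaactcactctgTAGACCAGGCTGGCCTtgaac
mmu_21049: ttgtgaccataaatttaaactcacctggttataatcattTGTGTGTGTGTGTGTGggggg

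The custom set had a narrow base composition. A total of 98.6% of its probes held 21 to 27 G or C bases (35% to 45% of the probe) against 79.2% of the catalogue probes. The custom probes piled up at both ends of that range, with 10219 probes at exactly 21 and 8185 at exactly 27. No custom probe had the same sequence as another probe of the array, and 33744 were spotted 2 times and 19 were spotted 10 times, while each catalogue probe had 1 spot. Identifier numbers ran from 1 to 35866 and carried no sign of order in the measurements. Across the 31935 pairs of consecutive numbers the correlation of levels was 0.023, and across the 4662 such pairs in which both were tested the correlation of differences was 0.021; these pairs share arrays and no sequence by design.

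Levels are given below as log2 of the scanner's processed signal minus the 75th percentile of that array, so that 0 is the level under which 75 percent of all probes of the array lie. Probes differ in how well they bind, and levels of different probes are not amounts of RNA on a common scale. The custom probes were mostly dim. Their median level was -3.0, -2.51 and -3.10 on vector arrays 1, 2 and 3 and -2.90, -2.33 and -2.56 on sh-U90926 arrays 1, 2 and 3. The catalogue probes had medians of -1.64, -1.45 and -1.75 in vector and -1.52, -1.35 and -1.47 in sh-U90926, above the custom probes on each of the 6 arrays.

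A probe was scored as detected where most of its spots were well above background. A custom probe with 2 spots thus needed both, while a catalogue probe had 1 spot, so the rule was stricter for the custom probes. Detection held for 53.7%, 41.1% and 33.8% of the custom probes on vector arrays 1, 2 and 3 and for 55.7%, 51.6% and 35.7% on the sh-U90926 arrays. The groups overlapped, and replicate 3 had the lowest share in both. The custom share minus the catalogue share was -17.9 ± 0.859 percentage points in vector and -16.5 ± 2.82 points in sh-U90926 (SD, n = 3 each). That gap differed between the groups by 1.42 points (0.48 to 3.04 with 1 array left out), with p = 0.4 in a 2-sided exact permutation test over arrays whose smallest possible p is 0.1. Counted over spots instead of probes, the gap was smaller, at -14.4 points in vector and -12.7 points in sh-U90926. A total of 12319 custom probes (36.5%) were detected on no array and 9532 (28.2%) on all 6, against 47.3% of the catalogue probes on all 6. No custom probe was saturated.

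Replicate spots of a tested custom probe agreed closely within an array, with a median SD between spots of 0.077 to 0.108 log2 units. The spread between arrays of a group was larger. The median pooled SD between arrays was 0.389 for tested custom probes and 0.444 for tested catalogue probes, and the custom value was lower in each of 10 classes of equal level. Nearly all custom values average 2 spots while each catalogue value rests on 1, so the 2 spreads are not on equal terms.

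The sh-U90926 arrays differed from the vector arrays in both directions among the custom probes. Of the 12798 probes tested (37.9% of the set, those detected on all 3 arrays of at least 1 group), 482 were higher in sh-U90926 (3.77%) and 606 lower (4.74%), together 1088 (8.5%), by limma with Benjamini-Hochberg adjustment over all 42413 tested probes at 0.05. Over all tested probes the shares were 3.26% higher and 4.12% lower, together 7.38%, and over the catalogue probes 3.57% and 4.03%, together 7.6%. The custom shares thus lay near the background of the array. The median change of the called probes was 3.70-fold for rises and 4.30-fold for falls. An unadjusted p under 0.05 was found for 2869 of the 12798 tested custom probes and 8811 of all 42413 tested probes. The 2 groups of arrays did not overlap for any of the 1088, and the same held for 29.4% of the tested custom probes and 26.4% of all tested probes.

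How many custom probes passed depended on which arrays entered. Leaving out a vector array gave 174 higher and 288 lower custom probes for replicate 1 (1.14% and 2.01% of all tested probes), 845 and 778 for replicate 2 (5.38% and 5.17%), and 110 and 167 for replicate 3 (0.602% and 1.05%). Leaving out an sh-U90926 array gave 205 and 327 for replicate 1 (1.26% and 2.17%), 323 and 486 for replicate 2 (2.34% and 3.21%), and 184 and 339 for replicate 3 (0.821% and 2.15%). Falls outnumbered rises in each of these fits except the one without vector replicate 2. With the replicate number as a block, 1653 custom probes were higher and 1401 lower (limma, adjusted p under 0.05), all 1088 were among them, and the background over all tested probes rose to 12.9% and 9.81%. With slide as a block 14 were higher and 25 lower, against 0.0872% and 0.245% of all tested probes. Only 1 slide held more than a single array, so this fit rests on vector replicate 2 against sh-U90926 replicates 2 and 3. Within scan run 2 alone, with 2 arrays a group, 6 were higher and 11 lower, against 0.0259% and 0.116% of all tested probes.

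Within these batches the median changes of the called probes were smallest on the slide that held both groups. Their direction could not reverse there, since the 2 groups of arrays did not overlap for any called probe. The median difference of the 482 rises was 1.94 log2 units in scan run 1, 1.92 in run 2 and 1.62 on the slide that held both groups, beside 1.89 over all arrays. The 606 falls had medians of -2.38, -1.97 and -1.76 in the same order, beside -2.10 over all arrays. Scan run 1 held 1 array of each group and the shared slide 1 vector and 2 sh-U90926 arrays, so these values have no test of their own, and they were computed on probes chosen for their difference over the same arrays.

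The balance of rises and falls also depended on the scaling. Rises made up 44.3% of the calls, 54.0% (572 higher, 487 lower) when the percentile was taken over probes detected on all arrays, and 28.2% (180 higher, 458 lower) with normexp background correction. Over all tested probes these 2 settings gave 4.58% higher and 3.55% lower, and 1.7% and 3.45%. The median difference of all tested custom probes was -0.13 log2 units, beside -0.02 for the catalogue probes, and turned to 0.10 under the first of these scalings, where the catalogue median was 0.21. Steep changes of at least 8-fold were counted in 61 rises (0.477% of tested custom probes, 0.349% of all tested probes, 0.367% of catalogue probes) and 148 falls (1.16%, against 1.27% and 1.4%). Of these, 5 rises and 66 falls were detected on all 6 arrays. Steep rises numbered 40 when vector replicate 1 was left out and 108 when vector replicate 2 was, and normexp gave 1 steep rise and 52 steep falls.

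Among custom probes detected on all 6 arrays, the falls were led by mmu_28084. Its levels on the vector arrays were 7.11, 6.60 and 7.53, in the order of replicate 1, 2 and 3 used throughout, and those on the sh-U90926 arrays were -1.65, -1.58 and 1.77. All vector values lay more than 4 log2 units above all sh-U90926 values, and sh-U90926 replicate 3 was the highest of its group. The difference was -7.57 ± 0.85 log2 units (SE; limma adjusted p = 0.00273), or 189.7-fold. In scanner units the geometric mean signal went from 21479 to 132.

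The second probe, mmu_28520, stood at 8.79, 8.29 and 9.33 in vector and at 1.98, -0.96 and 4.61 in sh-U90926. The groups did not overlap, although the sh-U90926 values spread over more than 5 log2 units. Its difference was -6.92 ± 1.18 (limma adjusted p = 0.0122), a fall of 121-fold with the widest error among the 10 steepest falls.

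The tightest of the steep falls was mmu_18092, at 4.84, 4.97 and 4.86 in vector and -0.97, -2.21 and -1.51 in sh-U90926. The vector arrays differed by less than 0.2 log2 units and the groups lay far apart. Its difference of -6.45 ± 0.35 had the smallest adjusted p of the probes named here (limma, 0.000291). For mmu_32432 the vector levels were 7.37, 6.48 and 7.52 and the sh-U90926 levels 0.62, -0.33 and 2.37. Here too sh-U90926 replicate 3 was the highest of its group, and the difference was -6.24 ± 0.65. The rest of the 10 largest falls detected on every array were mmu_29784, mmu_13728, mmu_89, mmu_1490, mmu_5444 and mmu_1397, with differences from -5.74 to -4.89 and adjusted p from 0.000775 to 0.0124 (limma).

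Among the called falls, 72 custom probes went undetected in the whole sh-U90926 group. For these only a bound was computed: the vector mean was set against the higher, on each sh-U90926 array, of the probe's own level and the lowest level of any detected probe. The probe mmu_19572 stood at 4.26, 4.45 and 4.54 in vector and was not well above background in sh-U90926, where its measured levels were -4.46, -4.10 and -1.88. It was at least 141-fold lower (limma adjusted p = 0.000775). The probe mmu_28053, at 3.28, 3.29 and 3.40 in vector, was at least 68.9-fold lower, and mmu_25981, at 3.25, 1.65 and 3.70, at least 50.1-fold lower. The vector arrays agreed to within 0.3 log2 units for the first pair, while vector replicate 2 was lowest for the third.

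The rises were smaller. The largest among probes detected on all 6 arrays was mmu_25213, at -1.22, -1.89 and -0.38 in vector and 2.80, 1.86 and 2.42 in sh-U90926. Every sh-U90926 value lay above every vector value, by more than 2 log2 units. The difference was 3.52 ± 0.43 (limma adjusted p = 0.00386), or 11.5-fold, from a geometric mean signal of 70.8 to 951.

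The next rise, mmu_7744, was the more even one, at -1.43, -1.94 and -0.77 in vector and 2.18, 2.01 and 2.19 in sh-U90926, a difference of 3.51 ± 0.34 (limma adjusted p = 0.00147). The probe mmu_17863 was the brightest in vector of the 10 largest rises, at 4.35, 3.51 and 5.27, and it reached 7.70, 7.14 and 8.43 in sh-U90926. Replicate 2 was lowest and replicate 3 highest in both groups. The probe mmu_13125 went from -2.08, -1.82 and -1.51 to 1.16, 1.49 and 1.43, a difference of 3.16 ± 0.28. The other 6 of the 10 largest rises were mmu_25116, mmu_25370, mmu_10030, mmu_6729, mmu_31449 and mmu_27491, with differences of 2.71 to 3.06.

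Some rises started below detection. A total of 131 called custom probes were not well above background on any vector array (1.02% of tested custom probes, 0.589% of all tested probes). The 72 falls below detection in sh-U90926 made up 0.563% of tested custom probes and 0.389% of all tested probes. Since a probe was tested when either group detected it, such probes entered only through the group where they were high. With detection required on all 6 arrays, 130 custom probes were higher and 342 lower. These were 1.36% and 3.59% of the custom probes so tested, beside 1.67% and 3.38% of all probes so tested. The probe mmu_7918 was not well above background in vector, with measured levels of -5.13, -2.87 and -3.17, and stood at 1.56, 1.19 and 1.45 in sh-U90926, at least 16.8-fold higher (limma adjusted p = 0.00247). The corresponding bounds were 13.2-fold for mmu_27304 and 10.3-fold for mmu_11962. Vector levels of these probes have no order, since all lay below the detection limit.

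The brightest custom probes changed little by comparison. The probe mmu_28767 stood at 10.23, 9.65 and 10.69 in vector and at 9.94, 9.59 and 10.07 in sh-U90926, overlapping ranges with a difference of -0.32 ± 0.34 (limma adjusted p = 0.647). The probes mmu_23586, mmu_7788, mmu_854 and mmu_124 had mean levels of 9.92, 9.87, 9.67 and 9.65 and differences from -0.47 to -0.18. None of the 5 passed the test. The smallest difference among tested custom probes in the brightest class of level was that of mmu_21100, with 4.34, 3.45 and 4.88 in vector and 4.55, 3.22 and 4.90 in sh-U90926. Replicate 2 was lowest and replicate 3 highest in both groups, and the groups differed by less than the SE of 0.52.

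Calls were then counted by level. Custom probes were sorted into 10 classes whose borders divide the tested catalogue probes equally by mean level. In the dimmest class 205 of 1584 custom probes rose and 104 fell, and in the brightest 1 of 892 rose and 18 fell. The median level of the called rises was -1.53 and that of the called falls -0.21, beside -0.28 for all tested custom probes. Catalogue probes had the same order at both ends, with 187 rises and 76 falls among 2100 in the dimmest class and 4 and 95 among 2100 in the brightest. A dim probe could enter through the group in which it was high. Among the 99 custom probes of the dimmest class that were detected on all 6 arrays, 0 rose and 0 fell (limma, from the same fit). The same was found for the 254 such catalogue probes, beside 7.38% of all tested probes called. A probe of so low a mean level that is detected on every array has little room to differ between groups. These counts of 0 therefore say little about the dim probes.

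Compared with catalogue probes of like level, the custom probes had the higher share of falls in 7 of the 10 classes and the higher share of rises in 2. Weighted to the levels of the custom probes, the catalogue shares would have been 4.13% higher and 3.69% lower, beside the 3.77% and 4.74% found. In the fifth class, for example, 78 of 1312 custom probes fell (5.95%) and 34 rose (2.59%), against 4.10% and 4.29% of the catalogue probes. In the brightest class the order of the falls was the other way, at 2.02% of the custom and 4.52% of the catalogue probes.

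The level-matched shift was also computed per array, as the mean over the 10 classes of the custom median minus the catalogue median. It was 0.13, 0.12 and -0.01 log2 units on vector arrays 1, 2 and 3 and 0.04, 0.04 and -0.24 on the sh-U90926 arrays. Replicate 3 was lowest in both groups and the groups overlapped. The mean was 0.08 ± 0.08 in vector and -0.05 ± 0.16 in sh-U90926 (SD, n = 3 each), a difference of -0.13 with p = 0.3 in the 2-sided exact permutation test, whose smallest possible p is 0.1. Within replicate numbers 1, 2 and 3 the differences were -0.09, -0.08 and -0.23, lower in 3 of 3 pairs, with p = 0.25 in an exact sign-flip permutation test, the smallest it can give. When sh-U90926 replicate 3 was left out, the unpaired difference was -0.04.

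Gene identity was available for a small share of the custom probes. A total of 163 matched at least 30 bases of a RefSeq sequence, 153 in promoter windows and 10 in microRNA hairpins. Of the matches to promoter windows, 66 probes read the strand of a gene there and 97 the opposite strand, with some probes counted under both, and 8 probes had several positions. Of the 163, 63 were tested, and 1 was higher and 4 lower, 7.94% of those tested beside 7.38% of all tested probes. Coordinates below are those of GRCm38.p6.

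The called hairpin probe was mmu_1748, at chr17:34025009-34025068 on the minus strand. It lies in the hairpin of Mir219a-1, a microRNA best known from the differentiation of oligodendrocytes, and on the opposite strand of Mir219c; the nearest protein-coding gene was Ring1, a Polycomb subunit, 329 bases away. It stood at 3.12, 1.61 and 3.75 in vector and 0.78, -0.23 and 0.88 in sh-U90926. Replicate 2 was lowest in both groups and the groups did not overlap. The difference was -2.35 ± 0.57 (limma adjusted p = 0.0446), a 5.11-fold fall. A 60-base probe of this kind reads the primary transcript and says nothing of the mature microRNA. The call was lost when slide was a block, with a difference of -1.29 and an adjusted p of 0.729 (limma). The slide fit rests on vector replicate 2 against sh-U90926 replicates 2 and 3 alone. The call was also lost with normexp (0.0619), with scan run as a block (0.0739), with wider filters, and in each fit that left out an array except vector replicate 2.

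The remaining hairpin probes gave no call. The probe mmu_905, in the hairpin of Mir6516 within the small nucleolar RNA host gene Snhg20 (chr11:117077371-117077430, plus strand), was at 0.78, 1.13 and 1.10 in vector and 0.91, 1.53 and 1.91 in sh-U90926. The ranges overlapped and the difference was 0.45 ± 0.33 (limma adjusted p = 0.491). In Mir3069 within Snhg10, mmu_35819 differed by 0.82 ± 0.46. In Mir1191 within BC024978, mmu_32085 differed by 0.24 ± 0.29.

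The probes in Mir181b-1 and Mir92-1 were dim and varied with replicate number. The probe mmu_33124 in Mir181b-1, a microRNA of lymphoid and myeloid cells, was at -2.06, -0.11 and -1.38 in vector and -2.06, -0.33 and -1.85 in sh-U90926, with replicate 2 the highest in both groups. The probe mmu_923 in Mir92-1, the last hairpin of the Mir17hg host transcript of growth-related microRNAs, was detected on 4 of 6 arrays and not tested. Its levels were -3.24, -0.71 and -4.37 in vector and -2.12, -0.50 and -2.58 in sh-U90926, again highest in replicate 2. Probes in Mir10a, Mir196a-1, Mir196a-2 and Mir137, hairpins of the homeobox clusters and of neurons, were not tested.

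The steepest located fall was mmu_6317, at chr11:83120557-83120616 on the plus strand. It lies in the span of Slfn1, a plus-strand gene of the schlafen family, whose members are expressed in immune cells and respond to interferon, and opposite the start of the minus-strand gene Gm51911. Its levels were -0.54, 0.04 and 0.97 in vector and -4.90, -3.88 and -3.96 in sh-U90926, where it was not well above background on any array. It was at least 7.68-fold lower (limma adjusted p = 0.00186).

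The probe mmu_1421, at chr14:75136273-75136332 on the minus strand, lies in the span of the minus-strand gene Gm15628 and opposite Lcp1. Lcp1 encodes L-plastin, an actin-bundling protein of leukocytes, on the plus strand, and the probe does not read it. It stood at 1.37, 0.16 and 0.87 in vector and -1.59, -2.29 and -1.96 in sh-U90926, where 2 of 3 arrays detected it. The groups lay more than 1 log2 unit apart and the difference was -2.75 ± 0.37 (limma adjusted p = 0.00529), a 6.72-fold fall. With slide as a block it was -2.29 with an adjusted p of 0.180 (limma).

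The other located calls were close to the threshold. The probe mmu_30860, at chr2:120027326-120027385 on the plus strand in the span of Mapkbp1, a gene for a scaffold protein of JNK signalling, starts 157 bases before the start of Gm28042. Its levels of 0.80, -1.53 and 0.47 in vector and -3.04, -2.03 and -2.53 in sh-U90926 put vector replicate 2 next to the sh-U90926 values. The difference was -2.44 ± 0.60 (limma adjusted p = 0.0484), and -0.75 with slide as a block (adjusted p = 0.924). The single rise was mmu_1966, at chr11:59506793-59506852 on the plus strand in 4933439C10Rik, opposite the zinc finger gene Zkscan17. It went from -1.02, -0.77 and -1.26 to 0.16, 0.66 and 0.13, a difference of 1.34 ± 0.29 (limma adjusted p = 0.0300; 1.17 and 0.692 with slide as a block). Located calls numbered 2 when vector replicate 1 or 3 or any sh-U90926 replicate was left out. They numbered 13 with the replicate block, where 12.9% of all tested probes were higher and 9.81% lower.

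Custom probes that overlap one another gave a check of the readings. A total of 454 pairs shared at least 30 bases on the same strand, and both probes were tested in 267. Across these pairs the differences had a correlation of 0.954 and the levels of 0.922, as a description of probes that share bases and the same arrays. In 13 pairs at least 1 probe was called, beside 7.38% of all tested probes called. In all 13 both were called, in the same direction, and 9 of these pairs were falls. The 13 are not separate cases. The trio printed above and the trio of mmu_19732, mmu_34616 and mmu_34620 each gave more than 1 of them. Pairs of a custom and a catalogue probe behaved alike, with 646 tested pairs and a correlation of differences of 0.935. In 55 of them at least 1 probe was called, all with the same sign, and in 37 both were called.

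Probes on opposite strands of the same bases differed more in level. The median gap in level between members of a pair was 1.85 log2 units for opposite-strand pairs of custom probes and 0.44 for same-strand pairs. For pairs with a catalogue probe the gaps were 1.59 and 0.32. None of the 35 and 81 tested opposite-strand pairs held a called probe (limma), beside 7.38% of all tested probes called. At an unadjusted p under 0.05 they held 1 lower of 50 probes and 5 higher and 1 lower of 88, beside 8811 of all 42413 tested probes.

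The overlapping trio printed above fell together. The probe mmu_13728 stood at 7.25, 6.01 and 7.26 in vector and 0.88, 0.61 and 2.27 in sh-U90926, mmu_1490 at 8.29, 7.68 and 8.32 against 2.57, 2.63 and 3.81, and mmu_19751 at 7.72, 6.61 and 7.75 against 2.44, 2.05 and 3.82. In all 3 probes vector replicate 2 was the lowest vector array and sh-U90926 replicate 3 the highest sh-U90926 array. The differences were -5.58 ± 0.52, -5.10 ± 0.40 and -4.59 ± 0.52 (limma adjusted p = 0.00131, 0.000775 and 0.00279). The probes mmu_1490 and mmu_19751 share 51 bases and are readings of 1 stretch of sequence. The probe mmu_13728 shares 31 bases with each and differs from them on both sides of that run. Whether it reads the same transcript was not tested, and the 3 are not counted here as separate events.

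Of the other overlapping pairs, mmu_89 and mmu_33252 share 43 bases and differed by -5.44 and -3.84, and mmu_2744 and mmu_9463 share 52 bases and differed by -3.94 and -4.13. Such overlap was rare among the calls. Joining called probes that share 20 bases reduced the 606 falls to 597 families and the 482 rises to 478. The largest family of rises was mmu_19732, mmu_34616 and mmu_34620, with differences of 2.25, 2.21 and 2.19.

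Some bright custom probes, mmu_854 and mmu_124 among them, held sequence that recurs in promoter windows, while the 3 brightest shared such sequence with 1 window at most. Each probe was searched, on either strand, for 16-base runs shared with the 32817 RefSeq promoter windows, and the windows were counted. The median level rose from -3.04 for the 22505 custom probes that shared no run, through 1.08 for those that shared with 21 to 100 windows, to 3.84 for the 82 that shared with over 100. Catalogue probes had the same order, with medians of -1.73, 1.04 and 5.48. A total of 623 custom probes shared with more than 20 windows.

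These recurrent probes were seldom called. Of the 487 tested, 0 rose and 5 fell (1.03%; limma, adjusted p under 0.05), beside 5.51% of other custom probes at the same levels and 7.38% of all tested probes. At an unadjusted p under 0.05, 3 were higher and 18 lower, beside 8811 of all 42413 tested probes in either direction. With the replicate block 39 were called, where 12.9% of all tested probes were higher and 9.81% lower. With slide as a block 0 were called, where the shares over all tested probes were 0.0872% and 0.245%. The count of called recurrent probes was 1 without vector replicate 3 and 3 without vector replicate 1 or sh-U90926 replicate 3. The 25th to 75th percentile range of the differences narrowed from -0.43 to 0.44 in custom probes without a shared run to -0.40 to -0.16 in those with over 100 windows. Recurrent catalogue probes were also seldom called. Their share was 1.23% of the 325 tested with 21 to 100 windows and 0 of the 176 tested with over 100, beside 8.21% without a shared run. A probe that reads many transcripts at once reports their sum, and its value cannot be assigned to 1 locus.

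The 14-base word AGACCAGGCTGGCC is the centre of the capitals in mmu_124 and was chosen after that probe was seen to be bright, so the levels of its holders are a description. It was held by 22 custom probes, in 0.0427% of the promoter windows and by 1 catalogue probe. The medians of the 22 custom probes by array were 9.03, 8.56 and 9.26 in vector and 8.83, 8.51 and 8.76 in sh-U90926, and the groups overlapped. None was called by limma, beside 7.38% of all tested probes. An unadjusted p under 0.05 was found for 0 of them, beside 8811 of all 42413 tested probes.

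The TG repeat of mmu_21049 gave a second case. The run TGTGTGTGTGTGTGTG was held by 6 custom probes and its complement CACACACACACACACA by 8. Each of these 14 probes was detected on all 6 arrays, and 0 were called by limma, beside 7.38% of all tested probes. An unadjusted p under 0.05 was found for 0 of the 14, beside 8811 of all 42413 tested probes. The 69 catalogue probes with the first run and the 32 with the second were likewise detected on all 6 arrays, and 0 were called. The differences of the custom probes ran from -0.65 to -0.40 for the first and from -0.39 to 0.08 for the second. The probe mmu_21049 itself, which shared runs with 191 windows, stood at 4.21, 3.83 and 3.89 in vector and 3.51, 3.66 and 3.55 in sh-U90926, a difference of -0.40 ± 0.26 (limma adjusted p = 0.436).

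Base composition went with level as well. The median level was -3.55 for custom probes with 21 G or C bases, -2.13 for those with 27 and 0.01 for the 433 with more than 27. The share called ran the other way, at 10.6% of tested probes with 21 G or C bases, 7.86% with 27 and 3.22% above 27, beside 7.38% of all tested probes. GC content, level and recurrence move together across these probes, and their separate parts in the share called were not tested.

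As many custom as catalogue probes carried a polyadenylation signal, the hexamer that marks where the end of a transcript is cut. The letters AATAAA were found on the transcript strand of 12.6% of the custom probes and 12.7% of the catalogue probes, and on the opposite strand of 4.42% of the custom probes. Custom probes with the hexamer were called at 6.36%, with 42 higher and 60 lower, and those without it at 8.81%; catalogue probes were called at 6.07% with it and 7.81% without. The letters ATTTA, found in the AU-rich elements through which many cytokine messenger RNAs are degraded, were in 9.83% of custom and 7.96% of catalogue probes, and custom probes were called at 8.27% with and 8.52% without them, beside 8.36% and 7.54% of catalogue probes. These are matches of letters in a 60-base window and no more.

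The authors' deposited table of processed values holds 1771 of the custom probes among its 4806. That table, the authors' deposited table, has higher values in sh-U90926 for 832 of them and lower values for 939, with no difference under 1.00 log2 unit. Of the 1605 that were tested from the scanner signals, all had the same direction, and 1067 passed the limma test. Both sets of values come from the same arrays, and the table holds only large differences, so the shared direction is no separate check. A further 21 called custom probes were not in the authors' deposited table.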

How the data were processed

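RNA of 6 samples was amplified to Cy3-labelled copy RNA, per the labels' protocols. Per the submitters' processing notes, Agilent Feature Extraction (version 10.7.1.1) read the scans. Per the file headers, the deposited scanner files hold an intensity for each spot (processed, mean and local background signals) and flags, not normalized between arrays. The authors also deposited a table of log2 values of selected probes; how it was normalized and selected is not stated there.

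Of the 148260 spots of an array, 4974 control spots and 11 to 37 outlier spots were left out. Spots of a probe were averaged as log2 processed signal, and each array's 75th percentile over 91172 probes with values was subtracted. Tested probes were those well above background on most of their spots on all 3 arrays of 1 group or both. The comparison used limma (version 3.58.1, in R 4.3.3; lmFit, eBayes, 2-sided, Benjamini-Hochberg over all tested probes, threshold 0.05). The code was also run on simulated arrays. These had less noise than the real ones and noise drawn independently for each array, so that run does not vouch for the calls. Differences are sh-U90926 minus vector. Sequences were matched in Python 3.11.15. RefSeq sequences are of GRCm38.p6; the scanner headers name another build, and no coordinate was taken from them. The number of arrays limits the precision.

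The members and lists were chosen with earlier results of these data known. Named probes are the 10 largest rises and falls among called probes detected on all arrays with groups that do not overlap, the 3 largest bounds in each direction, the 5 brightest, the leading overlapping pairs and the 2 smallest differences among bright probes; located and recurrent probes were added after their values were seen. Deviations of same-numbered arrays from their group means had correlations of 0.650, 0.710 and 0.554, all above 0.1, so the numbers were taken as pairs from the data; the labels state no pairing, and the unpaired fit is the main one. Alternatives covered background correction, scaling, the filter on dim probes, blocks for replicate, slide and scan run, moderation, thresholds, spots and each array left out.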

Additional observations from a re-analysis of the deposited data

How the results depend on the processing

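Counts of called custom probes are given as higher and lower, beside 482 and 606. They were 180 higher with normexp background correction (steep changes 1 and 52), 114 and 178 with no filter on dim probes, 130 and 342 for probes detected on all 6 arrays (steep 5 and 66), 270 and 368 for probes detected on any array, 133 and 234 at an adjusted p under 0.01, and 832 and 939 in the authors' deposited table, as counts of direction. With the replicate block they were 1653 and 1401, with slide as a block 14 and 25 (all of them steep), and in scan run 2 alone 6 and 11; both of the last settings leave fewer residual degrees of freedom. Leaving out 1 array gave 110 to 845 higher and 167 to 778 lower, with 40 to 108 steep rises. Over all tested probes, the shares higher and lower were 0.264% and 0.563% with no filter and 1.67% and 3.38% with detection on all 6 arrays. They were 1.05% and 1.64% with detection on any array, and 0.790% and 1.57% at a limma adjusted p under 0.01.

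Located calls, 5 in the report, numbered 3 with normexp or with scan run as a block, 2 with no filter, with detection on all 6 arrays or on any array, 1 with slide as a block, 13 with the replicate block and 2 to 6 with 1 array left out. Recurrent calls, also 5, numbered 1 with no filter, 0 with slide as a block, 39 with the replicate block and 1 to 7 with 1 array left out. With the replicate block, 12.9% of all tested probes were higher and 9.81% lower. The cause of these changes in number was not tested.

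The 42 named probes gave 905 values under the alternatives. Of these, 796 kept their status as called or not called, and 109 kept direction and lost the call. The lost calls included 31 in scan run 2 alone, 25 with slide as a block and 12 without vector replicate 3. Direction was compared only where a probe was called in the main fit or in the alternative, and 0 of those reversed. Probes called in the main fit had groups that did not overlap. For them, fits on fewer arrays, with blocks, or with other filters or thresholds could not have reversed the direction. Only changes of the values themselves, such as scaling or background correction, could have. The level-matched shift and the detection gap kept their direction in each alternative tried, with ranges of -0.19 to -0.04 log2 units and of 0.48 to 3.28 points. At 45 shared bases, all overlapping pairs with both probes called had the same direction. The replicate block ended none of the 1088 calls. Alternatives on the share of spots, the first spot alone and the located and recurrent probes were chosen after seeing the data.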
